A study of Mus musculus with 19 samples.

Results

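The Toll-like receptors examined here were the 10 mouse genes Tlr1, Tlr2, Tlr3, Tlr4, Tlr5, Tlr6, Tlr7, Tlr8, Tlr9 and Tlr13, taken by gene symbol as 10 of the 27299 gene rows of a bulk RNA-seq table of sorted retinal microglia. The table held 6 samples from retinas with laser-induced choroidal neovascularization on day 3 (CNV d3) and 6 samples from unlasered control retinas. All mice were 8 weeks old on a C57BL/6J background, and the methods of the study give Cx3cr1 GFP/+ mice, in which 1 allele of the fractalkine receptor gene carries GFP. CNV d3 eyes had received 6 argon laser burns each, and in both groups the peripheral retina was removed. Cells were sorted as CD45 low, CD11b+, CX3CR1+, Ly6C- and Ly6G-, while the labels give CD45+. The labels do not say whether the samples came from separate animals or pools, so the p-values below measure the spread between these samples.

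Toll-like receptors are membrane proteins of innate immune cells that recognise conserved molecules of microbes and some molecules released by damaged tissue. TLR1, TLR2, TLR4, TLR5 and TLR6 sit mainly at the cell surface, whereas TLR3, TLR7, TLR8, TLR9 and TLR13 work in endosomes, where they meet nucleic acids. Binding of a ligand brings receptor chains together, and the adaptors MyD88 or TRIF then pass the signal through kinases to NF-kappaB and interferon regulatory factors, which switch on cytokine genes. In the retina these receptors are best known from microglia, the resident macrophages of the tissue.

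Values were normalized counts, that is, reads per gene divided by a size factor of the sample. Libraries held between 10963178 and 22335233 gene reads in the control group and between 23532260 and 29523018 in the CNV d3 group, and 1 read was worth 0.739 to 1.99 normalized counts. All 8 microglia markers examined were expressed in every sample, and the sum of these markers was 931238 to 1069468 normalized counts in control and 497410 to 729969 in CNV d3 samples. Of them 6 fell with CNV d3, among them P2ry12 (log2FC = -1.65) and Cx3cr1 (log2FC = -0.84). The sum of 8 monocyte markers was 92.1 to 329.9 normalized counts in control and 4187 to 50171 in CNV d3 samples. Most of the CNV d3 sum was Fn1 alone, at 3763 to 47390. Of the 8 markers 5 increased. Ly6c2, the gene of the gated Ly6C protein, was at 0 in all control samples and at 1.73 to 25.1 in CNV d3 samples. Of 8 dendritic cell markers 5 rose (sum 23.8 to 514.3 in control and 330.6 to 2276 in CNV d3 samples), while the sum of 6 measured neutrophil markers was at most 26.4 in any sample, and Ly6g had no row. CNV d3 replicates 4, 5 and 6 had 1239 to 1450 normalized counts of the Y-linked gene Ddx3y and at most 0.866 of Xist, whereas the other 9 samples had none of Ddx3y and at least 3116 of Xist. The part of the differences in depth and markers in the results below was not tested. For Ddx3y, fits with its level as a covariate and without those 3 samples are given below, but no control had reads of it.

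Reads of 50 bases could not separate all members equally. On the annotated transcripts (Gencode M21, GRCm38), 454 of the 3332 distinct runs of 50 bases in Tlr1 (13.6%) also occurred in Tlr6, and these were 12.3% of the 3702 runs of Tlr6. Tlr2, Tlr5, Tlr7, Tlr8, Tlr9 and Tlr13 shared no such run with another gene. The longest stretch with the same bases in both coding sequences ran over 229 bases, and it is shown because reads falling inside it have no single gene of origin. It lies on the minus strand within 1 coding exon of each gene, at chr5:64925537-64925765 in Tlr1 and at chr5:64953828-64954056 in Tlr6, and is given from 5′ to 3′ with no base in capitals, since no base differs.

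shared stretch of Tlr1 and Tlr6: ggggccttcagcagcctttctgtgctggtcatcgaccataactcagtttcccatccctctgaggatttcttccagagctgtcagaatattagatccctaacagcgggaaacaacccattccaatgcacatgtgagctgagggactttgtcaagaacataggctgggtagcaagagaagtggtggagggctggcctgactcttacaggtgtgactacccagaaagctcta

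The counting setting of the authors leaves out reads with more than 1 mapping position, so the levels of Tlr1 and Tlr6 rest on the remainder of each gene. In Tlr3, 381 of 5207 exon bases overlapped exons of Gm45542, and reads that touched both genes were also left out. The levels per kilobase below still divide by all exon bases, so those of Tlr1, Tlr6 and Tlr3 may be too low. Of all runs of 50 bases, 15.4% in Tlr1 but 0.216% in Tlr4 also occurred in some other gene.

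Per kilobase of exons, Tlr2, which pairs with TLR1 or TLR6 to bind bacterial lipopeptides, was the most abundant member in both groups. In control samples it had 5138 ± 425.3 normalized counts per kilobase (SD, n = 6), followed by Tlr13, a receptor for bacterial ribosomal RNA, with 3545 ± 501.4 and Tlr7, a receptor for single-stranded RNA, with 2098 ± 324.6. Each of these 3 genes exceeded the next one in 6 of 6 control samples. Tlr4 (962.5 ± 124.2), Tlr3 (777.9 ± 182.2) and Tlr1 (605.6 ± 45.0) formed a middle group, in which each gene exceeded the next in 5 of 6 samples. Tlr6 had 215.5 ± 77.6, and Tlr9 (39.0 ± 12.6), Tlr5 (26.2 ± 25.1) and Tlr8 (9.95 ± 21.8) were lowest, with SDs for Tlr5 and Tlr8 about as large as or larger than the mean.

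In CNV d3 samples the first 3 places were held by the same genes, with 6023 ± 599.6 normalized counts per kilobase for Tlr2, 2407 ± 299.9 for Tlr13 and 2039 ± 202.3 for Tlr7, again in this order in 6 of 6 samples. Below them the order was Tlr3 (795.9 ± 165.2), Tlr1 (655.2 ± 91.8) and Tlr4 (639.3 ± 82.1), so that Tlr4 had moved from the fourth to the sixth place. Tlr1 and Tlr4 could not be ordered with these lengths, since Tlr1 was higher in 3 of 6 samples. No correction was made for the shared bases of Tlr1. Tlr6 (283.8 ± 30.3), Tlr9 (56.6 ± 13.3), Tlr8 (12.2 ± 8.03) and Tlr5 (3.80 ± 3.52) followed. The sum over the 10 genes was 13417 ± 902.2 normalized counts per kilobase in control and 12916 ± 946.8 in CNV d3 samples. Within this sum the share of Tlr2 was 38.3% ± 2.09 in control and 46.6% ± 3.17 in CNV d3 samples, and that of Tlr13 was 26.4% ± 2.88 and 18.6% ± 1.31.

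**Figure D1:**
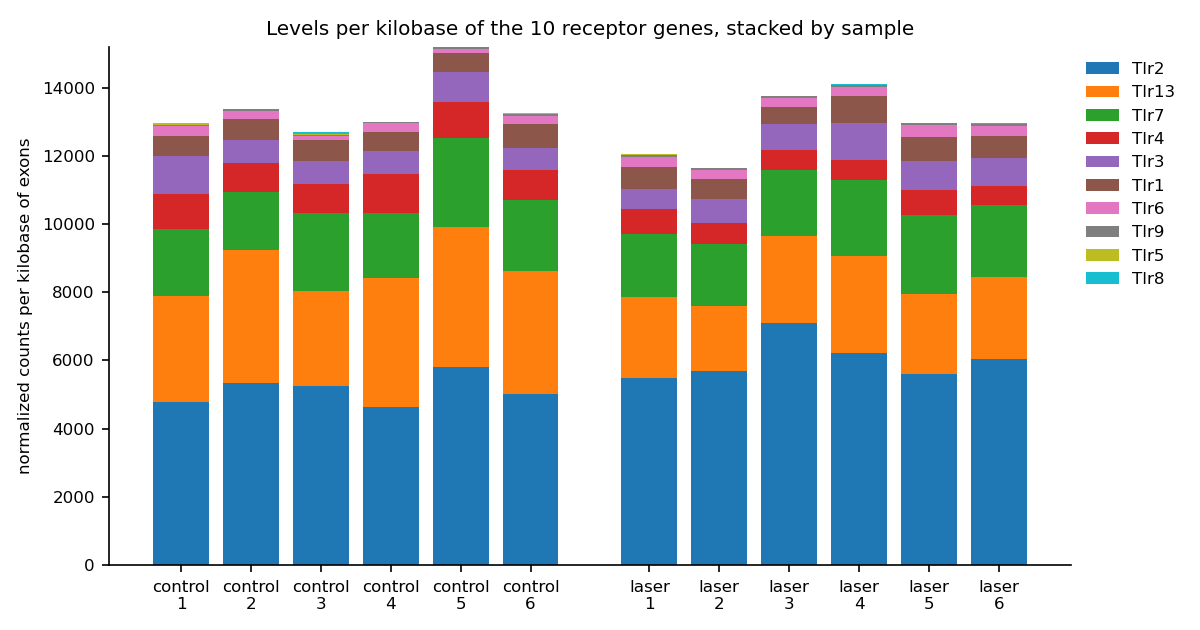
Normalized counts per kilobase of exons of the 10 Toll-like receptor genes, stacked in 1 bar per sample (6 control, 6 laser samples). Tlr2, Tlr13 and Tlr7 make up most of each bar, and the Tlr13 segment is lower on average in the laser samples, 1910 to 2829 against 2775 to 4097 in control samples.

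Between the groups, 2 of the 10 members fell at CNV d3 and none rose (limma on log2 of the normalized count + 1, Benjamini-Hochberg adjusted p below 0.05 over all 27299 genes). Over all genes, 8.29% rose and 4.57% fell. Of the 10 members 8 had a mean of at least 100 normalized counts, and among all 9713 genes at this level 15.3% rose and 10.8% fell. The median log2FC was 0.07 over the members, 0.15 over all genes tested and 0.06 over the genes with a mean of at least 100. No member met the definition of a DEG used in the study, which also asks for an absolute log2FC above 1.5. At an unadjusted limma p below 0.05, 2 members, Tlr2 and Tlr8, were higher and 2, Tlr4 and Tlr13, were lower. The share of all genes at this unadjusted threshold was not counted, so these 2 counts have no background. The count of members that rose was also 0 with edgeR, and 1 with DESeq2, with limma voom and with a filter on low values, through Tlr2 in each case.

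**Figure D2:**
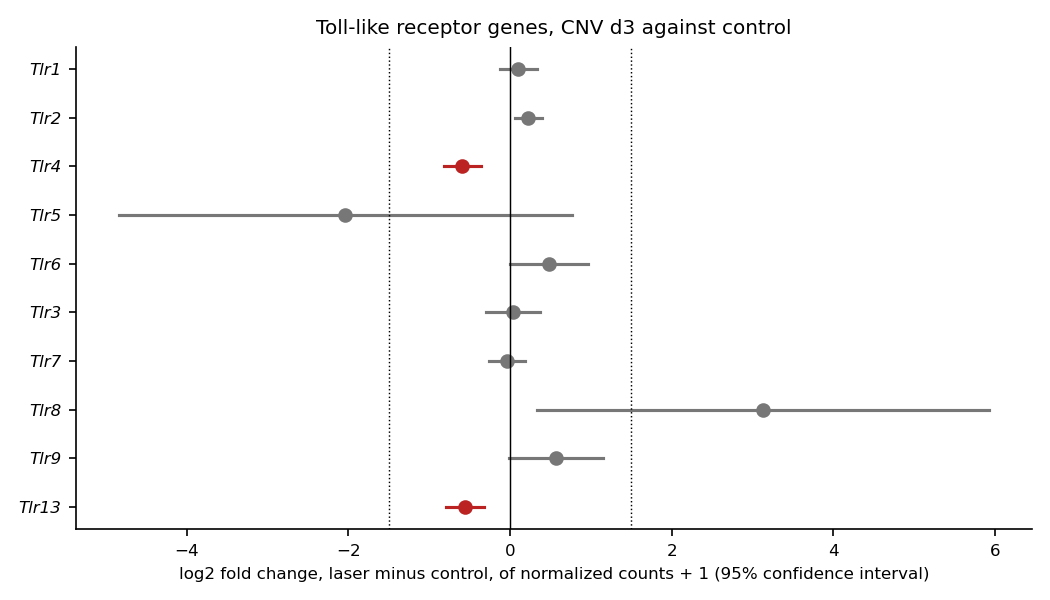
Log2 fold change of each member, laser minus control, with its 95% confidence interval from limma (6 samples a group); red marks adjusted p below 0.05, and dotted lines mark the absolute log2FC of 1.5. Tlr4 (-0.59) and Tlr13 (-0.56) are the members called, and the intervals of Tlr5 and Tlr8 are the widest.

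Tlr4 encodes the receptor for bacterial lipopolysaccharide and was the member with the smallest adjusted p. It had 4680 normalized counts in the lowest, 5250 in the median and 6332 in the highest control sample, against 3103, 3377 and 4143 in CNV d3 samples. All 6 CNV d3 samples were below all 6 control samples. Tlr4 was the only member whose groups did not overlap, while 6.46% of the genes with a mean of at least 100 were lower without overlap and 9.7% were higher. The mean fell from 5347 ± 689.9 to 3552 ± 456.1 (SD, n = 6), to 66.4% of the control mean (log2FC = -0.59, SE 0.107, limma adjusted p = 0.00193). The spread of 12.9% between control samples was several times the 1.45% that counting of reads alone would give. In bulk samples of this kind, fewer cells that express a gene and less RNA per cell cannot be told apart. Med31, Srpk3 and Mob4 had the patterns most like that of Tlr4 among 9712 genes with a mean of at least 100, with Pearson correlations of log2 values of 0.96, 0.96 and 0.95 over the 12 samples, which share the split into 2 groups and their size factors; within the control group alone the correlations were 0.94, 0.90 and 0.89 (n = 6), and within the CNV d3 group 0.79, 0.82 and 0.83 (n = 6).

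Tlr13 was the other member that fell. Its lowest, median and highest values were 11944, 15874 and 17633 normalized counts in control and 8220, 10286 and 12177 in CNV d3 samples. Of the 6 CNV d3 samples 5 were below all control samples, and CNV d3 replicate 4 was above control replicate 3. The mean fell from 15256 ± 2158 to 10358 ± 1291 (SD, n = 6), to 67.9% of control (log2FC = -0.56, SE 0.108, limma adjusted p = 0.00314). Tlr13 lies on the X chromosome at chrX:106143204-106160493. Without the 3 CNV d3 samples that had reads of Ddx3y, a comparison added after seeing the data, its log2FC was -0.63 (limma adjusted p = 0.0473), and with the level of Ddx3y as a covariate it was -0.63 (adjusted p = 0.0112). For Tlr4, on chromosome 4, the values were -0.58 (adjusted p = 0.0379) and -0.58 (adjusted p = 0.0189). Since Ddx3y was at 0 in all controls and in the other CNV d3 samples, both fits rest on nearly the same contrast. They are not separate checks. The 6 microglia markers that fell had log2FC values between -1.65 and -0.51, a range that takes in both receptors. The other 2 markers, Fcrls (log2FC = -0.33) and Olfml3 (log2FC = -0.05), were not called and lay above both receptors.

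The bases ahead of Tlr13 are shown because it is the called member with a promoter entry in the RefSeq table (GRCm38.p6), whereas Tlr4 and Tlr7 were not among the 8 members matched there. The stretch is chrX:106143025-106143203 on the plus strand, 179 bases that end where the first annotated exon begins. Capitals mark the core motif GAGGAA of PU.1, the transcription factor that macrophages and microglia require.

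upstream of Tlr13: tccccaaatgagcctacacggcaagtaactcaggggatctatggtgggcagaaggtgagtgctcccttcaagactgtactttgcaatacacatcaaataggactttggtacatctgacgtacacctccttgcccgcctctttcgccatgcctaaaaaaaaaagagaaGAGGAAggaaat

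On both strands, GAGGAA was found in the 250 bases ahead of the start in 4 of 10 windows of the matched members (Tlr1, Tlr8, Tlr9 and Tlr13), and in 23.3% of all 32851 windows in the table. The kappaB consensus was found in 2 of 10 windows (Tlr2 and Tlr3) and in 7.25% of all windows. TGANTCA, the AP-1 motif, was present in 1 window (Tlr9) and in 6.75% of all, GAAANNGAA, an interferon-type motif, in 2 (Tlr6 and Tlr8) and 7.13%, and TATAAA in 2 (Tlr6 and Tlr8) and 12.4%. These are matches of letters only, and Tlr1 and Tlr6 each had 2 windows. Starts were those of RefSeq, and some windows reached into exons annotated in Gencode M21. Of the 250 bases, 211 lay in such exons for 1 window of Tlr1, 178 for Tlr3, 159 for Tlr2 and 71 for Tlr13. The other windows had 49 or fewer.

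Tlr2 was higher in CNV d3 samples but did not pass the threshold. Its lowest, median and highest values were 13931, 15491 and 17495 normalized counts in control and 16536, 17687 and 21407 in CNV d3 samples. In the CNV d3 group 3 of 6 samples exceeded the highest control, with replicate 3 at the top. The means were 15485 ± 1282 and 18155 ± 1807 (log2FC = 0.23, SE 0.0786, 95% CI 0.06 to 0.40, limma adjusted p = 0.0731). Over the alternatives and single samples left out, its adjusted p ranged from 0.0273 to 0.291, and it was called with DESeq2, with limma voom, with the filter on low values and without control replicate 5.

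The partners of TLR2 were not called. Tlr1 had means of 2026 ± 150.5 and 2192 ± 307.0 normalized counts (log2FC = 0.10, SE 0.108, limma adjusted p = 0.572). Tlr6 had 411.0 in the lowest, 888.1 in the median and 1163 in the highest control sample, and 933.2, 1038 and 1238 in CNV d3 samples (log2FC = 0.48, SE 0.227, 95% CI 0.00 to 0.97, limma adjusted p = 0.199). The CNV d3 values of Tlr6 lay within or just above the range of the controls, whose lowest replicates, 3 and 5, had 411.0 and 498.9. Tlr5, the receptor for bacterial flagellin, ranged from 0 to 317.8 in control and from 0 to 49.5 in CNV d3 samples, with 1 sample at 0 in each group. Its means were 125.6 ± 120.3 and 18.2 ± 16.8, and the fold change was not called (log2FC = -2.04, 95% CI -4.84 to 0.76, limma adjusted p = 0.378), although DESeq2 called it lower (adjusted p = 0.0312).

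Among the endosomal receptors other than Tlr13, none was called. Tlr3, the receptor for double-stranded RNA, had 4050 ± 948.9 normalized counts in control and 4144 ± 860.3 in CNV d3 samples (log2FC = 0.04, SE 0.156, 95% CI -0.30 to 0.37, limma adjusted p = 0.889). Tlr7 had 8564 ± 1325 and 8323 ± 825.6 (log2FC = -0.03, SE 0.104, 95% CI -0.25 to 0.19, limma adjusted p = 0.843). In folds, the interval of Tlr7 was 0.838 to 1.14 times the control level. Tlr9, the receptor for unmethylated CpG DNA, ranged from 73.0 to 202.5 in control and from 140.5 to 279.9 in CNV d3 samples, and the groups overlapped (means 135.7 ± 43.8 and 196.7 ± 46.2, log2FC = 0.57, SE 0.274, limma adjusted p = 0.212).

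Tlr8, a neighbour of Tlr7 on the X chromosome, was near the detection limit in control samples. Of 6 control samples 4 had no read, which allows up to 3 reads or 3.01 to 5.96 normalized counts by counting error alone, control replicate 1 had 19.3 and control replicate 3 had 194.8 normalized counts. All CNV d3 samples had reads, from 7.16 to 82.5 normalized counts. The group means of 35.7 ± 78.3 and 43.7 ± 28.8 were close, whereas the mean of the log2 values differed by 3.13 (SE 1.31, 95% CI 0.34 to 5.92, limma adjusted p = 0.143). Without control replicate 3 the log2FC was 4.25 and passed the threshold (adjusted p = 0.0143), and over the other settings it was between 0.29 and 3.77, so that 1 library decided the call. CNV d3 replicates 4, 5 and 6, which had reads of Ddx3y, showed the 3 highest values of Tlr8 within their group (58.9, 82.5 and 63.1). They also had the 3 highest of Tlr7 (9105, 9388 and 8590). The same 3 samples were highest for Tlr1 on chromosome 5 (2610, 2431 and 2201) and Tlr3 on chromosome 8 (5587, 4373 and 4310). For Tlr13 on the X chromosome they were not, since CNV d3 replicate 3 (10997) exceeded replicates 5 and 6 (10183 and 10313). Without CNV d3 replicates 4, 5 and 6 the log2FC was 2.15 for Tlr8 (limma adjusted p = 0.608) and -0.16 for Tlr7 (adjusted p = 0.571).

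**Figure D3:**
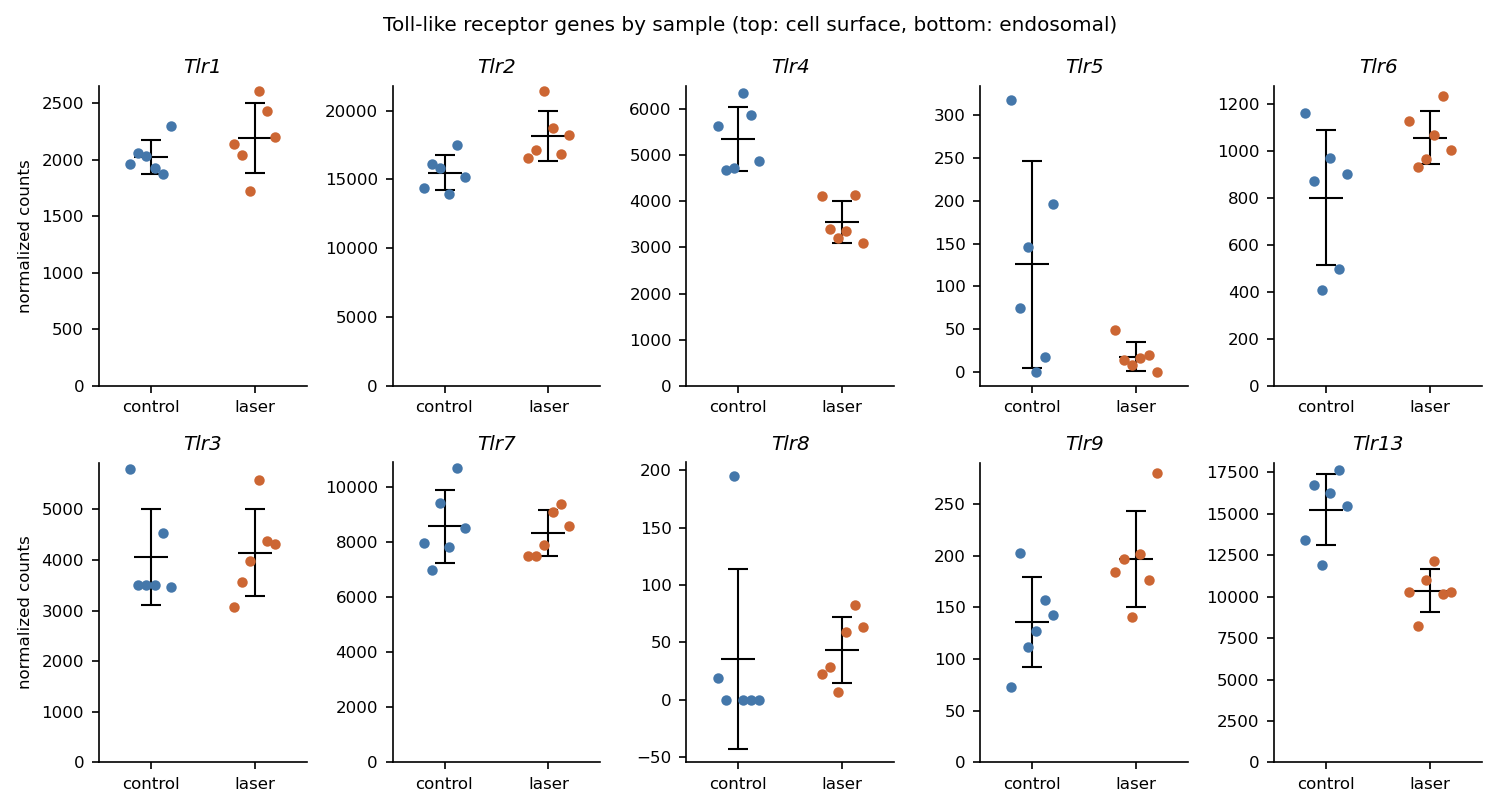
Normalized counts of each member by sample (points; 6 control, 6 laser), with the mean and SD of the group in black and a separate linear axis for each gene. Tlr4 separates the groups, Tlr13 nearly so, and Tlr8 shows control replicate 3 at 194.8 with 4 other controls at 0, where the SD bar reaches below 0.

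Ratios between receptors that pair, or that share a chaperone, were compared because the size factor of a sample largely cancels in a ratio of 2 genes well above the added count of 1; it does not cancel for Tlr8, which was at 0 in 4 controls. None of the 6 ratios passed the threshold (two-sided exact permutation test of log2 ratios, Benjamini-Hochberg adjusted over the 6 ratios; the smallest p that 6 against 6 samples allow is 0.00216). The log2 ratio of Tlr2 to Tlr1 was 2.93 ± 0.167 in control and 3.06 ± 0.301 in CNV d3 samples, a difference of 0.12 (exact permutation p = 0.461, adjusted p = 0.461). That of Tlr1 to Tlr6 was 1.42 ± 0.580 and 1.05 ± 0.165 (difference -0.38, exact permutation p = 0.173, adjusted p = 0.260), and that of Tlr2 to Tlr6 differed by -0.25 (exact permutation p = 0.407, adjusted p = 0.461).

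The 3 remaining ratios had an unadjusted p below 0.05. Tlr4 to Ly96, the gene of the co-receptor that holds lipopolysaccharide on TLR4, was 1.98 ± 0.292 in control and 2.33 ± 0.136 in CNV d3 samples (difference 0.34, exact permutation p = 0.0216, adjusted p = 0.0996). Both genes of this ratio were lower at CNV d3, and 3 of 6 ratios at CNV d3 exceeded the highest control ratio. Tlr7 to Tlr9 was 6.02 ± 0.557 and 5.42 ± 0.322 (difference -0.60, exact permutation p = 0.0498, adjusted p = 0.0996). Tlr7 to Tlr8 was 11.1 ± 3.21 and 7.90 ± 1.15 (difference -3.16, exact permutation p = 0.0455, adjusted p = 0.0996), with the controls at 0 for Tlr8 setting the upper values through the added count of 1. With an added count of 5 the difference was -1.77, and with 0.5 it was -3.81.

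**Figure D4:**
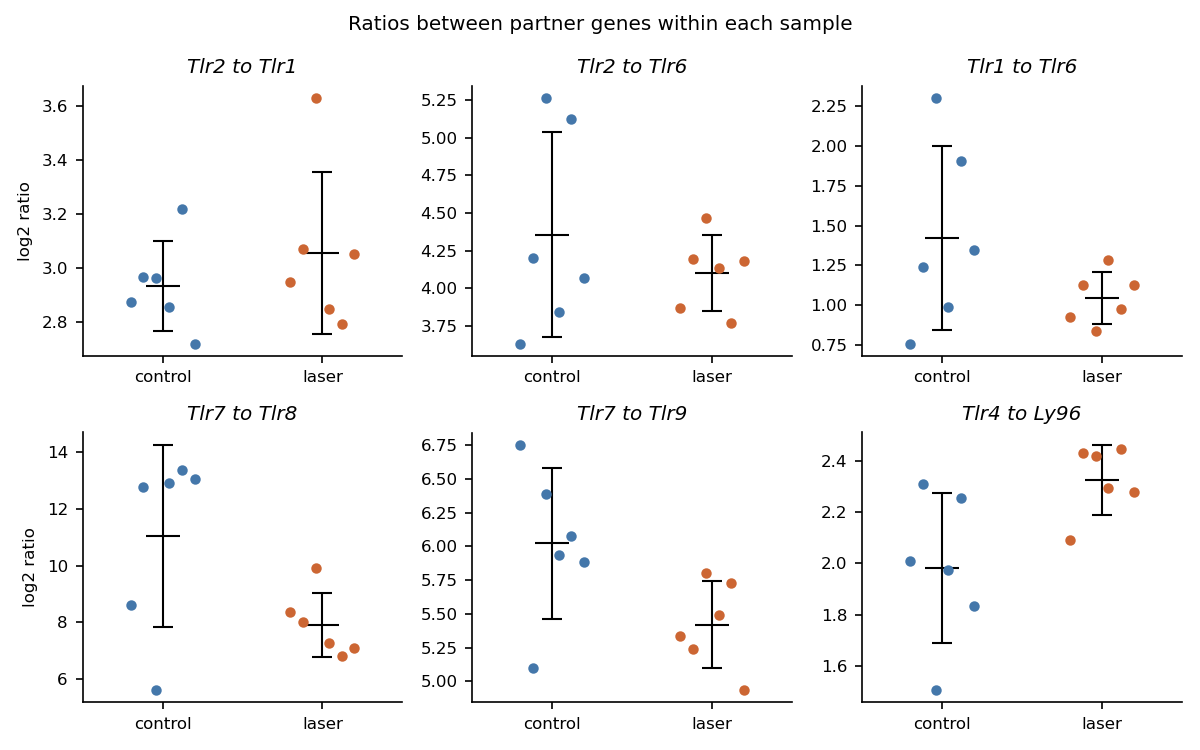
Log2 ratio of normalized counts + 1 between partner genes within each sample (points; 6 control, 6 laser), with the mean and SD of the group in black; each panel has its own axis, which does not start at 0. The groups overlap in all 6 panels, and Tlr4 to Ly96 is higher on average in laser samples by 0.34.

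The other genes of the pathway were taken from 8 lists by role, of which 70 of 75 genes were measured. Of these 70 genes 15 rose and 12 fell (limma, adjusted p below 0.05), where 8.29% of all genes rose and 4.57% fell, and 15.3% and 10.8% of those with a mean of at least 100. The median log2FC was 0.25 against 0.15 over all genes. Without the 3 CNV d3 samples that had reads of Ddx3y, 7 rose and 5 fell, while over all 27299 genes 1022 rose and 540 fell. The 7 were Cd36, Ctsb, Ctsl, Fn1, Hmgb1, Hsp90b1 and Ikbke, and the 5 were Cd14, Il6, Irak2, Nfkb1 and Nfkbia. All other pathway genes given below as called, among them Irf7, Irak1, Pik3ap1, Irf5 and Ly96, were not called in that comparison. Monocyte and dendritic cell markers also rose in the CNV d3 samples, with the sums given above. Their part in the counts of pathway genes was not tested. Apart from the lists, the receptor genes Tlr11 and Tlr12, which recognise profilin of protozoan parasites, were also measured. Tlr11 was not called (limma adjusted p = 0.881), with 0 to 258.2 normalized counts in control and 6.26 to 92.9 in CNV d3 samples, and its direction depended on the scale, since the mean was 83.2 ± 99.1 in control and 45.1 ± 29.7 in CNV d3 samples but the log2FC was 0.29. Tlr12 fell from 1695 ± 261.8 to 1085 ± 251.1 normalized counts without overlap of the groups (log2FC = -0.66, SE 0.161, limma adjusted p = 0.0128; adjusted p = 0.0757 without those 3 samples).

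**Figure D5:**
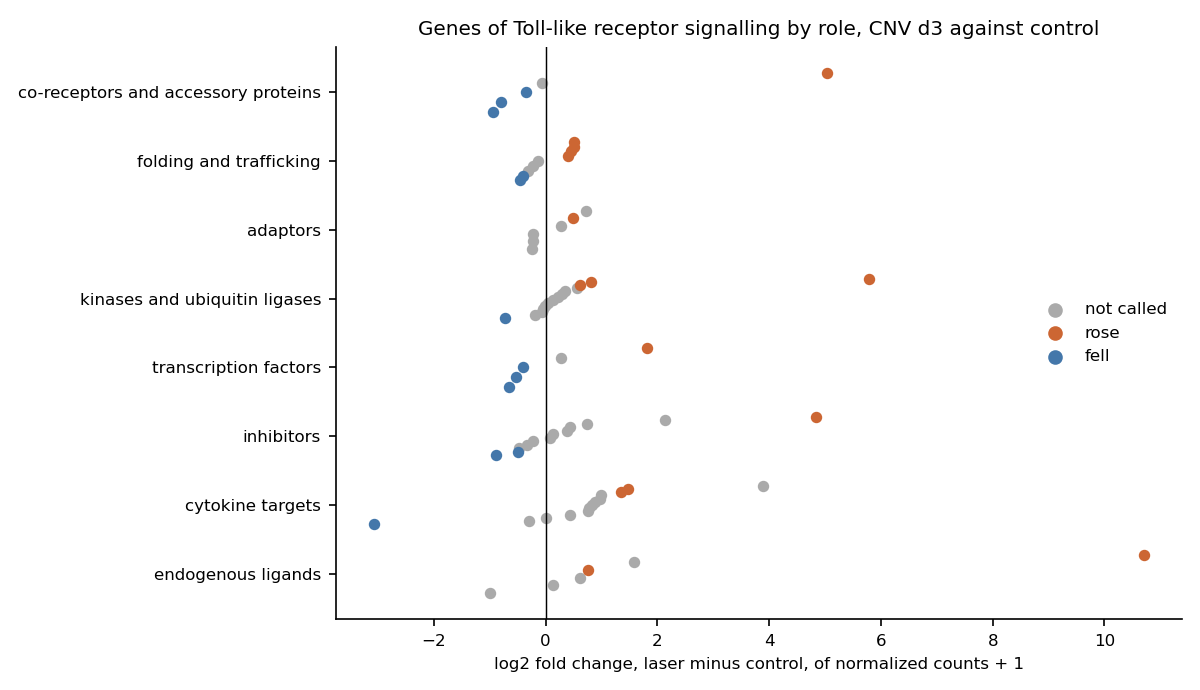
Log2 fold change, laser minus control, of the 70 measured pathway genes by role (1 point per gene; orange rose, blue fell, grey not called by limma). Co-receptors and transcription factors have 3 genes each that fell, and Fn1 at 10.70 lies far to the right of all others.

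Of the 5 measured co-receptors and accessory proteins, 3 fell and 1 rose. Cd14, which hands lipopolysaccharide to TLR4, had 18256 to 20479 normalized counts in control and 7809 to 15238 in CNV d3 samples, with no overlap (log2FC = -0.79, SE 0.133, limma adjusted p = 0.00111). Ly96 fell from 1367 ± 261.1 to 713 ± 135.0 (log2FC = -0.93, SE 0.160, limma adjusted p = 0.00133). With Tlr4, the 3 genes of the lipopolysaccharide receptor thus each had a lower mean at CNV d3, at 66.4% of control for Tlr4, 59.1% for Cd14 and 52.1% for Ly96. Ly86, the gene of the partner protein of CD180, had a log2FC of -0.35 (limma adjusted p = 0.0163; not called without CNV d3 replicate 2, 3 or 6), and Cd180 was not called (log2FC = -0.06, limma adjusted p = 0.735). The call of Ly86 was also lost without a variance trend and with Ddx3y as a covariate. Cd36, a scavenger receptor that helps TLR2 with TLR6 to bind its ligands, rose from 82.0 ± 35.6 to 2651 ± 956.5 (log2FC = 5.03, SE 0.296, limma adjusted p = 1.04e-06), and all CNV d3 samples were above all controls.

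Folding and trafficking genes moved in both directions, with 4 of 9 increased and 2 decreased. Unc93b1, the chaperone that carries the nucleic-acid receptors to endosomes, fell from 46528 ± 4226 to 34396 ± 6818 normalized counts (log2FC = -0.46, SE 0.121, limma adjusted p = 0.0207). Leaving out control replicate 1, 2, 3 or 5 or CNV d3 replicate 2, 5 or 6 ended the call, 7 of 12 cases. The call of Unc93b1 was also lost without a variance trend. Ctss, a lysosomal protease, fell as well (log2FC = -0.41, limma adjusted p = 0.0183), a call that ended without control replicate 3, 4 or 5 or CNV d3 replicate 2 or 6, with voom (adjusted p = 0.869) and without a variance trend. In contrast, Hsp90b1, which folds most Toll-like receptors in the endoplasmic reticulum, rose (log2FC = 0.52, SE 0.0776, limma adjusted p = 0.000506) without overlap of the groups. The proteases Ctsb (log2FC = 0.51, limma adjusted p = 0.000251) and Ctsl (log2FC = 0.40, limma adjusted p = 0.00124), which can cleave receptors in endosomes, rose without overlap too. Ctsb was not called with limma voom (adjusted p = 0.0951), nor Ctsl with limma without a variance trend (adjusted p = 0.0510). Ap3b1, a subunit of an adaptor complex of endosomes, was the fourth that rose (log2FC = 0.46, limma adjusted p = 0.0482), and with single samples left out this call remained only without CNV d3 replicate 1. It was also lost with a pseudocount of 5, without a variance trend, with the replicate block (log2FC = 0.46 in each) and with Ddx3y as a covariate (log2FC = 0.40).

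The 2 main adaptors were not called. Myd88, used by all members but Tlr3, had 1887 ± 254.9 normalized counts in control and 2267 ± 158.0 in CNV d3 samples (log2FC = 0.27, SE 0.105, limma adjusted p = 0.110). Ticam1, which encodes TRIF, the adaptor of TLR3 and TLR4, had 581 ± 115.5 and 489 ± 68.3 (log2FC = -0.24, SE 0.167, limma adjusted p = 0.421). Pik3ap1, an adaptor to phosphoinositide 3-kinase, was the only 1 of 6 adaptors that rose (log2FC = 0.49, SE 0.0952, limma adjusted p = 0.00299), from 9018 to 13404 in control to 14169 to 18426 in CNV d3 samples.

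Downstream kinases and ubiquitin ligases were mostly not called, with 3 of 14 increased and 1 decreased. Irak1 (log2FC = 0.62, SE 0.136, limma adjusted p = 0.00750), a kinase recruited by MyD88, and Map3k7 (log2FC = 0.81, SE 0.205, limma adjusted p = 0.0154), which encodes TAK1, rose, and Irak2, another kinase of the MyD88 complex, fell from 3725 ± 539.8 to 2258 ± 289.9 normalized counts (log2FC = -0.72, SE 0.118, limma adjusted p = 0.000940). Ikbke, a kinase that acts on interferon regulatory factors, was at 0 in 5 of 6 controls and at 44.1 to 266.6 in all CNV d3 samples (limma adjusted p = 0.000982). Among 5 transcription factors 3 fell, Nfkb1 (log2FC = -0.66, limma adjusted p = 0.000703), Rela (log2FC = -0.53, limma adjusted p = 0.0152) and Irf5 (log2FC = -0.40, limma adjusted p = 0.00478), which encode NF-kappaB subunits and an interferon regulatory factor. Map3k7 was not called without CNV d3 replicate 3 or 5, and Rela not without CNV d3 replicate 3, 5 or 6. With Ddx3y as a covariate Map3k7, Rela and Irf5 were not called, nor were Rela and Irf5 without a variance trend. Irf7, a factor of the type I interferon response, rose from 1738 ± 1157 to 5459 ± 1552 normalized counts (log2FC = 1.82, SE 0.330, limma adjusted p = 0.00193), with overlap of the groups.

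Of 12 inhibitors of the pathway 2 fell and 1 rose. Nfkbia, which encodes the inhibitor of NF-kappaB and is itself switched on by NF-kappaB, fell from 4264 ± 422.1 to 2346 ± 483.4 normalized counts with no overlap (log2FC = -0.88, SE 0.126, limma adjusted p = 0.000356), and Rnf216, a ubiquitin ligase, fell too (log2FC = -0.49, limma adjusted p = 0.0401), a call lost in 9 of 12 cases when a single sample was left out, without a variance trend and with Ddx3y as a covariate. Sigirr, a receptor that dampens signalling, was at 0 in 4 of 6 controls, at up to 202.0 in the others and at 80.3 to 178.1 in CNV d3 samples (limma adjusted p = 0.0189). Its call was lost in 10 of 12 cases when a single sample was left out. The call was also lost with edgeR, with DESeq2 and with Ddx3y as a covariate. Irak3, which restrains MyD88 signalling, was not called (log2FC = 0.75, SE 0.299, limma adjusted p = 0.125).

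Of 13 measured cytokine and effector genes that lie downstream of the receptors, 2 rose and 1 fell. Tnf had 59.7 to 289.4 normalized counts in control and 223.1 to 702.4 in CNV d3 samples (log2FC = 1.35, SE 0.407, limma adjusted p = 0.0402), and Il1b had 68.7 to 648.6 and 321.4 to 915.4 (log2FC = 1.47, SE 0.462, limma adjusted p = 0.0496). Both calls were near the threshold, and the groups overlapped. Leaving out single samples ended the call in 10 of 12 cases for Tnf and in 11 of 12 for Il1b. Both calls were also lost with edgeR, with a pseudocount of 5, without a variance trend and with Ddx3y as a covariate. DESeq2 called Tnf but not Il1b. Il6, the third cytokine called, went the other way, from 226.8 ± 41.8 to 34.2 ± 24.1 (log2FC = -3.07, SE 0.518, limma adjusted p = 0.00116), with all CNV d3 samples below all controls. The remaining 10 genes were not called in the main fit. Of these, Ccl3 (log2FC = 0.76, limma adjusted p = 0.0577) was called higher with edgeR, DESeq2, the filter on low values and thinned reads. It was also called with the replicate block and with Ddx3y as a covariate, as was Ccl4. Il12b, at 0 in 5 of 6 controls, was called higher with voom, the filter and the replicate block.

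Among 6 measured genes of proteins released in damaged tissue that can act as endogenous ligands, 2 rose. Hmgb1, a nuclear protein that activates TLR4 and TLR2 when released, rose from 2077 ± 261.0 to 3528 ± 407.3 normalized counts (log2FC = 0.76, SE 0.108, limma adjusted p = 0.000322). Fn1, which encodes fibronectin, was at 0 to 69.3 in control and at 3763 to 47390 in CNV d3 samples (log2FC = 10.70, SE 1.04, limma adjusted p = 2.03e-05). This call was lost with limma voom (adjusted p = 0.399). Fn1 also counts among the 8 monocyte markers and made up most of their sum in CNV d3 samples. The other 4 genes of the list were not called.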

How the data were processed

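Per the labels and the methods, the authors mapped 50-base single reads with STAR 2.7.2b to GRCm38.p6 with Gencode M25 after FastQC 0.72, merged flow cells and counted reads per gene with featureCounts 1.6.4 at default parameters, which use no strand and drop reads of several positions or genes. Genes with 0 reads were removed, and the deposited signal is the count divided by the DESeq2 1.22.2 size factor (R 3.5.3). RNA was amplified by PCR without molecular identifiers, so floors cover counting error only. The authors' group means, fold changes and adjusted p-values were not used.

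Of 19 labelled samples, those listed in parts were counted as 1 each, which gave 12, grouped by label. All 6 control samples and laser replicate 4 were listed in 2 parts, and the other laser samples in 1. This split nearly follows the groups, so its part in the results cannot be told apart from that of the laser. Values in all 12 columns were whole multiples of 1 read (100%, tolerance 0.01), which returned read counts for the count tools. The main test was limma 3.58.1 in R 4.3.3, with a variance trend, on log2(normalized count + 1), with no filter and Benjamini-Hochberg adjustment over 27299 genes, since the values are not counts. Fold changes are differences of group means on this scale, so for genes with samples at or near 0 they depend on the added count and can differ in size and sign from the ratio of the group means. Alternatives were TMM, edgeR 4.0.16 quasi-likelihood, DESeq2 1.42.0, voom, pseudocounts of 0.5 and 5, a filter of 10 normalized counts in 6 samples, no variance trend, a replicate block, Ddx3y as a covariate, thinned reads and each sample left out. The scripts were tested on simulated data. Exon lengths and coordinates came from Gencode M21 (GRCm38), the promoter windows from RefSeq.

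The members and lists were chosen with earlier results of these data known. Named were all members, called list genes (up to 5 of highest mean per list), defining genes of a role (Cd14, Ly96, Unc93b1, Myd88, Ticam1, Irak3, Tnf, Il1b) and the 3 genes most correlated with the member of smallest adjusted p. Ap3b1, Cd180, Ccl3, Ccl4, Il12b, Tlr11 and the markers of other cells were named after their values were seen. Of the other marker lists, 1 of 6 border macrophage, 3 of 5 plasmacytoid dendritic cell (Ly6d at 0 in 11 of 12 samples) and 1 of 4 endothelial genes rose, and 1 endothelial and 1 of 5 Mueller glia and astrocyte genes fell. B cell genes summed to 932.3 to 1852 normalized counts in control and 755.2 to 1566 in laser samples, nearly all Cd79b, and photoreceptor genes to 667.7 to 6339 and 534.1 to 11854.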

Additional observations from a re-analysis of the deposited data

Results flagged for a closer look

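Of 32 groups of 6 samples examined for a sample far from the others, 2 held one, and chance alone flags about 1 group in 20. Tlr8 had 194.8 normalized counts in control replicate 3, while the nearest of the other controls had 19.3. The log2 ratio of Tlr2 to Tlr1 was 3.63 in laser replicate 3, while the nearest of the other laser samples had 3.07.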

How the results depend on the processing

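Tlr4 and Tlr13 stayed called lower in all 12 other settings and with each of the 12 samples left out, with log2FC values of -0.64 to -0.54 for Tlr4 and -0.63 to -0.49 for Tlr13. The covariate Ddx3y and the removal of the laser samples with its reads rest on nearly the same contrast. The number of members that rose went from 0 to 1 with DESeq2, voom and the filter (Tlr2 each time) and was 0 to 1 with single samples left out (Tlr2 without control replicate 5, Tlr8 without control replicate 3). The number of pathway genes that fell went from 12 to 6 without a variance trend and was 7 to 12 with single samples left out, 7 being without laser replicate 6. With the level of Ddx3y as a covariate, 1351 genes rose and 739 fell in place of 2264 and 1247, and without the laser samples with reads of Ddx3y, chosen after seeing the data, 1022 rose and 540 fell, with 7 and 5 pathway genes. DESeq2 called 2170 genes lower. Uncalled values that changed sign were Tlr1 (-0.043 with the covariate and -0.043 without those samples), Tlr3 (-0.18 and -0.18, and -0.054 to 0.15 with single samples left out) and Tlr7 (-0.090 to 0.034 with single samples left out). The ratio of Tlr7 to Tlr8 differed by -3.81 with a pseudocount of 0.5 and by -1.77 with 5. Among the ratios, with single samples left out, Tlr7 to Tlr8 ranged from -4.26 to -2.70, Tlr7 to Tlr9 from -0.79 to -0.46 and Tlr4 to Ly96 from 0.25 to 0.41; they passed the threshold without control replicate 3, 2 and 2, respectively. The replicate block called 1885 genes higher and 975 lower; the numbers do not pair the samples (correlations of deviations -0.053 to 0.071). The cause of these changes was not tested. Tlr5 and Tlr8 had wide intervals, with a spread between control samples of 95.7% and 219.5% of the mean, where counting of reads alone would give 9.86% and 17.7%.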
